A study of Mus musculus with 8 samples.

Results

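The 8 genes described here, Arc, Npas4, Bdnf, Homer1, Nptx2, Rgs2, Rgs4 and Vgf, are synaptic and secreted effectors of neuronal activity together with the activity-dependent transcription factor Npas4. They were chosen by gene symbol from 24946 symbols that could be assigned to a gene. All 8 were listed, and all 8 were among the 14365 genes tested, with at least 1.51 TPM (transcripts scaled to a fixed library total) in every library. Septa of C57Bl6J mice, 4 to 6 per pool, were profiled by PhosphoTrap, in which ribosomes carrying phosphorylated ribosomal protein S6 (pS6) are precipitated and their RNA is sequenced beside that of the lysate. Naive mice stayed in the home cage. Restraint-stressed (RS) mice were held in a flexible cone for 1 h. The labels place the killing 1 h after restraint and the study's methods place it after the stress, and this difference was not settled here. Each pool gave an input library (lysate RNA) and an IP library (RNA bound by 4 ug of anti-pS6 antibody), so that each condition had 2 input and 2 IP libraries. The labels name no transgene and give neither age nor sex.

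When a neuron fires, calcium entry activates kinases that phosphorylate transcription factors such as CREB and the serum response factor complex, and these switch on a first wave of genes. Some of the genes encode further transcription factors. Others encode proteins that act directly at synapses, by moving receptors, by reshaping the scaffold under them, by signaling to neighboring cells or by shortening G protein signals. In the lateral septum, a mostly GABAergic nucleus that links the hippocampus with the hypothalamus, such genes are used as marks of neurons engaged by stress.

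The members lie on 6 chromosomes (GENCODE M21, GRCm38) and all are protein coding. Arc spans chromosome 15, 74669083 to 74672570, minus strand, and Npas4 spans chromosome 19, 4984355 to 4990316, minus strand. Bdnf, at chromosome 2, 109674700 to 109727007, plus strand, has several alternative first exons joined to a common coding exon. Homer1 lies on the plus strand of chromosome 13, 93299635 to 93405129, and its annotated transcripts range from 772 to 5713 bases. The short Homer1a form and the long forms have opposite roles, and a value per gene cannot separate them. Nptx2 and Vgf both lie on the plus strand of chromosome 5, at 144545902 to 144557478 and at 137026392 to 137033351. Rgs2 and Rgs4 both lie on the minus strand of chromosome 1, at 143999338 to 144004161 and at 169741477 to 169747642.

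The bases before the transcription start are shown for the members with an entry in the RefSeq promoter table (GRCm38.p6), because CREB acts on many activity genes through the cAMP response element (CRE), whose core is TGACG. Of the 8 members, 5 had an entry, with 12 start sites in all, and Arc, Nptx2 and Vgf had none. Both strands of the 250 bases before each start were searched, and the core was found before 5 of the 12 starts, each in a different gene. Among 32851 such windows of the table, 17.8% held the core. Capitals mark it, as TGACG or, on the other strand, CGTCA. The windows are chr2:109692186-109692435 on the plus strand for Bdnf (start 3 of 7), chr13:93303507-93303756 on the plus strand for Homer1 (start 1 of 2), chr1:144004150-144004399 on the minus strand for Rgs2 and chr1:169747643-169747892 on the minus strand for Rgs4. For Npas4 only the 30 bases around both cores are given, chr19:4990129-4990158 on the minus strand, since GENCODE places that window inside the untranslated region of a transcript that starts further upstream.
Npas4: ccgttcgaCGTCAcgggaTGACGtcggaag
Bdnf: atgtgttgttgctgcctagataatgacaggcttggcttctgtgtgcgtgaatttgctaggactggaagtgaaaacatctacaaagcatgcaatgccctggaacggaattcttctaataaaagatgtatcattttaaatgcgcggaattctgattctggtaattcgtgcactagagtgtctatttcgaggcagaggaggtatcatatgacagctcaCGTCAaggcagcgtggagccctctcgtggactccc
Homer1: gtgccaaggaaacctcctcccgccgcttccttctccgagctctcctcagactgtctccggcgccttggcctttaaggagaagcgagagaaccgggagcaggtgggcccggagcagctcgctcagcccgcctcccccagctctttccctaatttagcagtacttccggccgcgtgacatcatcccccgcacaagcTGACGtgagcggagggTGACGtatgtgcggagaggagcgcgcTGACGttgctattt
Rgs2: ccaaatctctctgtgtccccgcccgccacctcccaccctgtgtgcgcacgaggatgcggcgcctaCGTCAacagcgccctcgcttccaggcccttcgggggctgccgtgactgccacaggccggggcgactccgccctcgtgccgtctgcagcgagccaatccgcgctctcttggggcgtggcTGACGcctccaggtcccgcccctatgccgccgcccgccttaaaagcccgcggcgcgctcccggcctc
Rgs4: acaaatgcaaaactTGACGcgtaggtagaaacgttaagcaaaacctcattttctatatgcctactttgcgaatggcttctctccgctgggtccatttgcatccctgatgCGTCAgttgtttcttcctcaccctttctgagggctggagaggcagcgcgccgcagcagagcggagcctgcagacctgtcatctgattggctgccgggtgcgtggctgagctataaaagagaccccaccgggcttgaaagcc
Homer1 held 3 cores, 56, 40 and 14 bases before the start, as did 0.688% of all windows with 3 or more. Npas4 (179 and 169 bases before the start), Rgs2 (185 and 67) and Rgs4 (236 and 141) held 2 each, against 3.90% of all windows with 2 or more. The Bdnf core stood 35 bases before the start. None of the 12 windows held the full palindrome TGACGTCA, which was present in 1.55% of all windows. A match describes these letters and does not show that a factor was bound.

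In level, Rgs4 ranked first among the 8 genes in every group and Bdnf last, on the TPM scale, which is per transcript length. In naive input the means were 238 ± 0.703 TPM for Rgs4, 114 ± 5.95 for Rgs2, 79.4 ± 4.68 for Arc, 18.8 ± 1.46 for Npas4, 11.98 ± 0.104 for Vgf, 7.21 ± 1.116 for Homer1, 4.36 ± 0.992 for Nptx2 and 1.62 ± 0.159 for Bdnf (SD, n = 2), and no neighbors in this order overlapped between pools. The order changed after restraint: Arc stood above Rgs2 in both RS fractions, with 158 ± 15.03 against 106 ± 0.442 TPM in input. In RS input Npas4 could not be placed against Vgf and Homer1, because its pools (16.9 and 10.2 TPM) spanned those of both genes, whereas the Vgf pools lay above the Homer1 pools. In RS IP, Nptx2 and Npas4 overlapped as well.

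**Figure D1:**
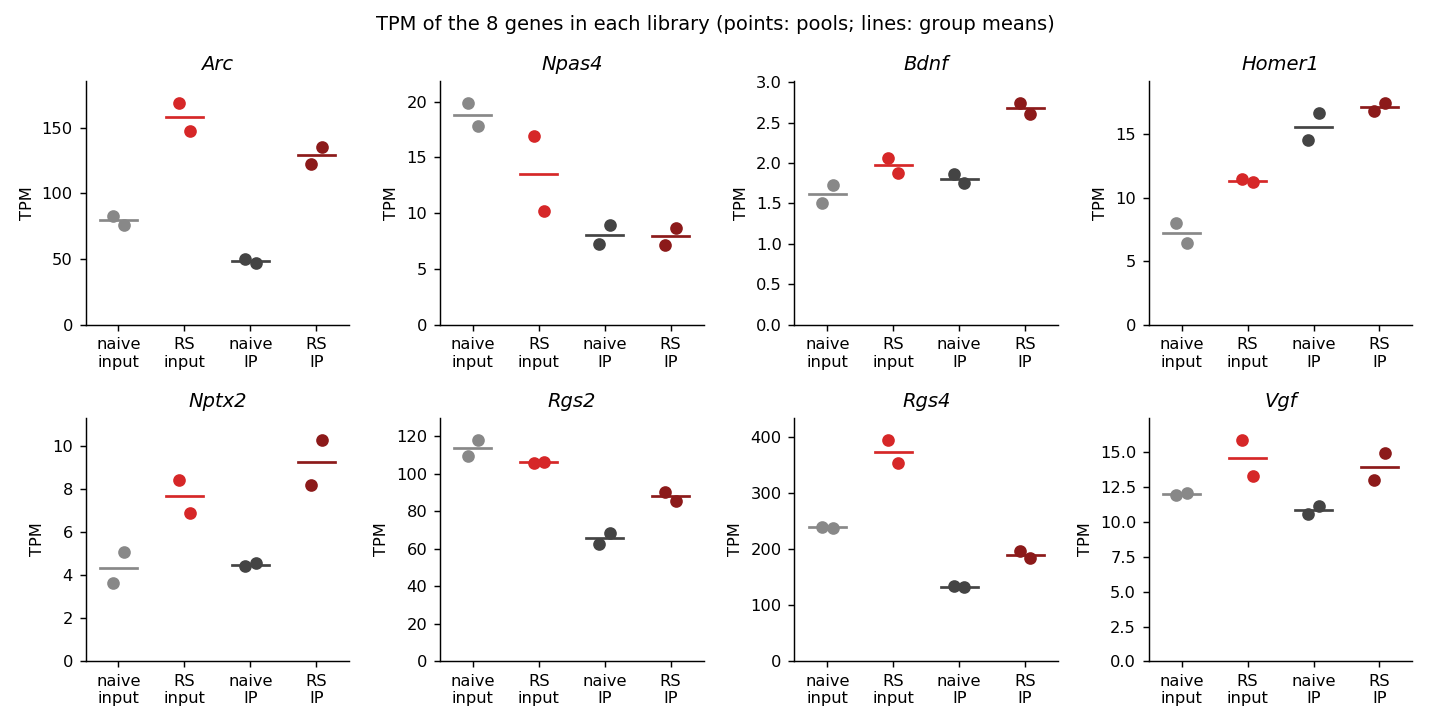
TPM of each of the 8 genes (vertical axis, from 0, on a separate scale for each gene) in the input and IP libraries of naive and RS mice. Points are the 2 pools of a group and lines are group means. Arc, Bdnf, Homer1, Nptx2, Rgs4 and Vgf stand higher in both RS pools than in both naive pools in input and in IP, whether called or not, Rgs2 does so in IP, and Npas4 does not do so in either fraction.

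The first comparison asked which of these genes were higher or lower in the whole septal lysate after restraint. Of the 8 members, 4 rose, namely Arc, Rgs4, Nptx2 and Homer1, and none fell at an adjusted p under 0.05 in limma. At an unadjusted p under 0.05 the counts were 5 and 0. Of all genes tested in input, 20.3% were called higher and 8.21% lower. The median change was 0.43 on the log2(TPM + 1) scale over the members and 0.13 over all genes. Folds given below are on that scale and are smaller than ratios of mean TPM, most of all in genes of low level. For Nptx2 the fold was 1.62 against a TPM ratio of 1.76 in input, and 1.86 against 2.06 in IP.

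Arc, whose protein is a capsid-like regulator of AMPA receptor endocytosis, stood at 82.7 and 76.1 TPM in the naive pools and at 169 and 147 TPM in the RS pools. The RS pools did not overlap the naive pools, and the level was 1.98-fold higher (log2 change 0.98, SE 0.09, adjusted p = 0.000907). This placed Arc above 99.4% of all genes tested in the size of its increase. In bulk RNA, more cells with a transcript and more transcript per cell cannot be told apart, which applies to all members.

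Homer1, a scaffold of the postsynaptic density that links it to calcium stores, stood at 8.00 and 6.42 TPM in naive input and at 11.5 and 11.2 TPM in RS input. Both RS pools were higher, by 1.51-fold (log2 change 0.60, SE 0.12, adjusted p = 0.00909). This gene carries 3 CRE cores in the sequence printed for it, and whether they bear on its change was not tested. It no longer passed when naive input pool 2 (0.46, adjusted p = 0.0543) or RS input pool 1 (0.58, 0.0529) was left out.

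The secreted members differed among themselves. Nptx2 (Narp), a secreted pentraxin that clusters AMPA receptors at excitatory synapses, stood at 3.66 and 5.07 TPM in naive input and at 8.45 and 6.90 TPM in RS input. It was 1.62-fold higher (log2 change 0.70, SE 0.17, adjusted p = 0.0186), but no longer passed once naive input pool 1 (0.51, adjusted p = 0.108) or RS input pool 1 (0.57, 0.112) was left out or the trend with transcript length was removed (0.56, 0.0644). Bdnf, the neurotrophin that acts through TrkB, was low throughout, at 1.51 and 1.73 TPM in naive input and 2.07 and 1.88 TPM in RS input, and was not called (0.18 on the log2 scale, SE 0.13, adjusted p = 0.308). Vgf, a granin-like precursor of neuropeptides, stood at 11.9 and 12.05 TPM in naive input and at 15.9 and 13.3 TPM in RS input, a difference of 0.26 (SE 0.11) that also missed the threshold (adjusted p = 0.118). Their RS pools lay above their naive pools without overlap, but by little.

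The 2 regulators of G protein signaling went separate ways in input. Rgs4, which speeds the shutdown of Gi and Gq signals and is abundant in forebrain neurons, stood at 239 and 238 TPM in the naive pools and at 394 and 353 TPM in the RS pools, 1.56-fold higher (log2 change 0.64, SE 0.06, adjusted p = 0.00119). Rgs2, which acts mainly on Gq signals, stood at 109.5 and 118 TPM in naive input and at 106 TPM in both RS pools (log2 change -0.10, SE 0.07, adjusted p = 0.311). The Rgs2 pools of RS mice were slightly below those of naive mice. With median-of-ratios scaling of the libraries, Rgs2 was called lower (-0.25, adjusted p = 0.0359).

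Npas4, a transcription factor induced by calcium entry that controls inhibitory synapses and Bdnf, was the member with the lowest value in this comparison. It stood at 19.9 and 17.8 TPM in naive input and at 16.9 and 10.2 TPM in RS input. The RS pools were apart from each other and both below the naive pools, and the difference of -0.49 on the log2 scale was not called (SE 0.21, 95% interval -0.98 to 0.01, adjusted p = 0.126). Without RS input pool 1 it was called lower (-0.83, adjusted p = 0.0251), so this call rested on 1 library.

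Of the members, 6 had both RS input pools above both naive pools and 2 had both below, with 0 overlapping. Over all genes these shares were 48.8% above and 19.3% below, so that lack of overlap was common in input. The input comparison also shifted as a whole. Median-of-ratios scaling moved the median of all genes from 0.13 to 0 and the share of higher genes among the calls from 71.2% to 38.3%, and the median change rose from -0.27 for genes with transcripts under 1000 bases to 0.28 for those over 5000 bases. The median transcript lengths of the members lay between 1804.5 and 3905 bases. Relative to the median of all genes the changes were 0.85 for Arc, 0.57 for Nptx2, 0.51 for Rgs4 and 0.47 for Homer1, and under median-of-ratios scaling 4 members were higher and 1 was lower.

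**Figure D2:**
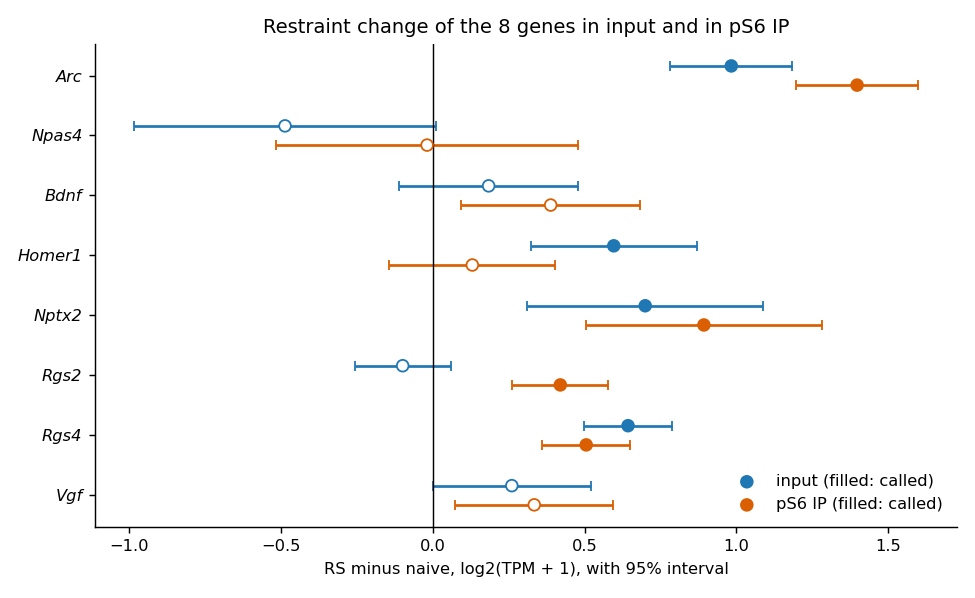
Difference between RS and naive libraries for each gene on the log2(TPM + 1) scale (horizontal axis) in input (blue) and in pS6 IP (orange). Points are limma estimates, bars are 95% intervals and filled points passed an adjusted p under 0.05. Arc has the largest increase of the 8 in both fractions (0.98 and 1.40), Rgs2 is near 0 in input and at 0.42 in IP, and Homer1 is at 0.60 in input and 0.13 in IP.

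The second comparison asked which of these genes were higher or lower after restraint in the RNA bound to pS6-carrying ribosomes. Again 4 of the 8 members rose, namely Arc, Nptx2, Rgs4 and Rgs2, and none fell at an adjusted p under 0.05 in limma (6 and 0 at an unadjusted p under 0.05). In the IP 1.98% of all genes tested were called higher and 0.327% lower. The median change was 0.40 over the members and 0.01 over all genes.

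Arc stood at 49.9 and 46.7 TPM in naive IP and at 122 and 136 TPM in RS IP. Its RS pools were far from the naive pools, 2.63-fold higher (log2 change 1.40, SE 0.09, adjusted p = 0.000207), and 99.5% of all genes tested changed by less or fell. The call held with every library left out in turn, with adjusted p from 0.000309 to 0.00357.

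Nptx2 stood at 4.42 and 4.56 TPM in naive IP and at 8.20 and 10.3 TPM in RS IP, 1.86-fold higher (log2 change 0.89, SE 0.17, adjusted p = 0.0391). Both RS pools were well above the naive pools, but the call was lost whichever IP library was left out, with adjusted p of 0.175 and 0.162 without naive IP pool 1 or 2 and 0.0886 and 0.216 without RS IP pool 1 or 2. It was also lost with the replicate number as a block (0.0606), without a filter on low values (0.0902) and without a trend in eBayes (0.0642). The change stayed between 0.74 and 1.04.

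Rgs4 stood at 134 and 132 TPM in naive IP and at 196 and 183 TPM in RS IP, 1.42-fold higher (log2 change 0.51, SE 0.06, adjusted p = 0.00633). Rgs2, whose input change was near 0, stood at 62.4 and 68.5 TPM in naive IP and at 90.3 and 85.5 TPM in RS IP, 1.34-fold higher (log2 change 0.42, SE 0.07, adjusted p = 0.0211). For both genes the RS pools lay above the naive pools without overlap. Rgs4 lost its call without naive IP pool 1 (adjusted p = 0.0501), naive IP pool 2 (0.0589) or RS IP pool 1 (0.0645), and Rgs2 lost it without each IP library, at 0.135 and 0.0515 without naive IP pool 1 or 2 and at 0.128 and 0.0879 without RS IP pool 1 or 2.

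The other 4 members were not called in the IP. Bdnf stood at 1.87 and 1.75 TPM in naive IP and at 2.74 and 2.61 TPM in RS IP (log2 change 0.39, SE 0.13, adjusted p = 0.179). Vgf stood at 10.5 and 11.1 TPM in naive IP and at 13.0 and 14.9 TPM in RS IP (0.33, SE 0.11, adjusted p = 0.191). Both had their RS pools above their naive pools, and both passed an unadjusted p under 0.05 (0.016 and 0.0179).

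Homer1 stood at 14.6 and 16.7 TPM in naive IP and at 16.9 and 17.5 TPM in RS IP, so that its RS pools were only just above (log2 change 0.13, SE 0.12, 95% interval -0.14 to 0.40, adjusted p = 0.676). Npas4 stood at 7.21 and 8.90 TPM in naive IP and at 7.19 and 8.69 TPM in RS IP. Its groups overlapped, and its difference was -0.02 (SE 0.21, 95% interval -0.51 to 0.48, adjusted p = 0.982). Among the 8, Npas4 was the only gene whose IP pools overlapped between conditions: 7 had both RS pools above both naive pools and 0 had both below, against 25.1% and 21.2% of all genes.

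The third comparison tested whether the RS change itself differed between IP and input. Only Rgs2 was called among the members, with a change larger in the IP by 0.52 (SE 0.10, adjusted p = 0.027), from 0.42 in IP and -0.10 in input. Over all genes 3.29% were called higher and 3.46% lower in this test. The Rgs2 call was kept without RS input pool 2 (adjusted p = 0.0335) and lost without any other library, naive input pool 1 or 2 (0.0847 and 0.0956), RS input pool 1 (0.0592), naive IP pool 1 or 2 (0.0845 and 0.0651) and RS IP pool 1 or 2 (0.0894 and 0.0686), while the difference stayed between 0.45 and 0.58.

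Arc came next, with a difference of 0.41 (SE 0.12, adjusted p = 0.0842), and it passed the test only with median-of-ratios scaling (0.54, adjusted p = 0.0398). Homer1 had a difference of -0.47 (SE 0.17, 95% interval -0.85 to -0.08, adjusted p = 0.127), so its being called in input and not in IP was not shown to be a difference between the fractions. The remaining members had differences of 0.47 (Npas4, adjusted p = 0.367), 0.20 (Bdnf, 0.514), 0.19 (Nptx2, 0.65), 0.07 (Vgf, 0.804) and -0.14 (Rgs4, 0.364).

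Levels in the IP were also compared with those in the input of the same condition. In naive mice Npas4, Rgs4, Rgs2 and Arc were lower in the IP and Homer1 was higher, while 17.4% of all genes were called higher and 49.2% lower. Homer1 stood 2.03-fold above its input level (difference 1.02, SE 0.12, adjusted p = 0.000144), with ratios of IP to input TPM of 1.82 and 2.60 in the 2 pools. Npas4 was 2.20-fold lower (-1.13, SE 0.21, adjusted p = 0.00194), with ratios of 0.363 and 0.5003. Rgs4 (-0.84, SE 0.06, adjusted p = 1.94e-05), Rgs2 (-0.79, SE 0.07, 3.61e-05) and Arc (-0.70, SE 0.09, 0.000204) had ratios between 0.556 and 0.615. Bdnf (0.10, adjusted p = 0.501), Nptx2 (0.05, 0.82) and Vgf (-0.13, 0.322) did not pass.

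In RS mice the same 5 members were called in the same directions, with 17.8% of all genes higher and 54.9% lower. Homer1 had ratios of IP to input TPM of 1.47 and 1.56 (log2 change 0.56, SE 0.12, adjusted p = 0.00299). Arc had ratios of 0.726 and 0.920 (-0.29, SE 0.09, adjusted p = 0.0164), Rgs2 of 0.854 and 0.803 (-0.27, SE 0.07, 0.00726), Rgs4 of 0.497 and 0.520 (-0.97, SE 0.06, 5.06e-06) and Npas4 of 0.425 and 0.854 (-0.67, SE 0.21, 0.0218). Arc, Rgs2 and Bdnf had higher ratios in both RS pools than in both naive pools, and Homer1 and Rgs4 had lower ones. How many of all genes were separated in this way was not counted. From naive to RS mice the IP to input difference moved by a median of -0.11 over all genes, and by -0.14 for Rgs4. Among the members only Rgs2 passed the test of that move. Bdnf (0.31, adjusted p = 0.0587), Nptx2 (0.24, 0.23) and Vgf (-0.06, 0.651) did not pass.

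These ratios depend on the scaling, because the median gene stood at -0.32 in naive and -0.42 in RS mice. Relative to that median, Arc, Rgs2 and Vgf in RS mice were higher in the IP rather than lower, by 0.13, 0.15 and 0.36. With median-of-ratios scaling, which moved the median of all genes to 0.00 and 0.01, Arc (0.22, adjusted p = 0.0473), Rgs2 (0.24, 0.0136) and Vgf (0.42, 0.00787) were called higher in the RS IP and Npas4 was no longer called (-0.20, 0.413). Bdnf (0.66, limma, adjusted p = 0.00203) and Nptx2 (0.69, 0.00597), not called in the main fit, were then called higher in the RS IP. In the naive IP, Bdnf was called higher too (0.35, 0.0393). Homer1 and Rgs4 kept their calls and directions in both conditions under that scaling. The median of all genes also fell with transcript length. It went from 0.36 under 1000 bases to -0.68 over 5000 in naive mice, and from 0.61 to -0.90 in RS mice. With that trend removed, Bdnf was called higher in the naive IP (0.60, limma, adjusted p = 0.0044). In the RS IP, Bdnf (1.005, 0.000268), Nptx2 (0.68, 0.00744), Arc (0.27, 0.0218) and Vgf (0.39, 0.0128) were called higher. Rgs2 (-0.06, 0.449) and Npas4 (-0.01, 0.968) were no longer called there. Leaving out RS input pool 1 or RS IP pool 1 also ended the calls of Arc (adjusted p = 0.103 and 0.106) and Npas4 (0.128 and 0.116) in RS mice.

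**Figure D3:**
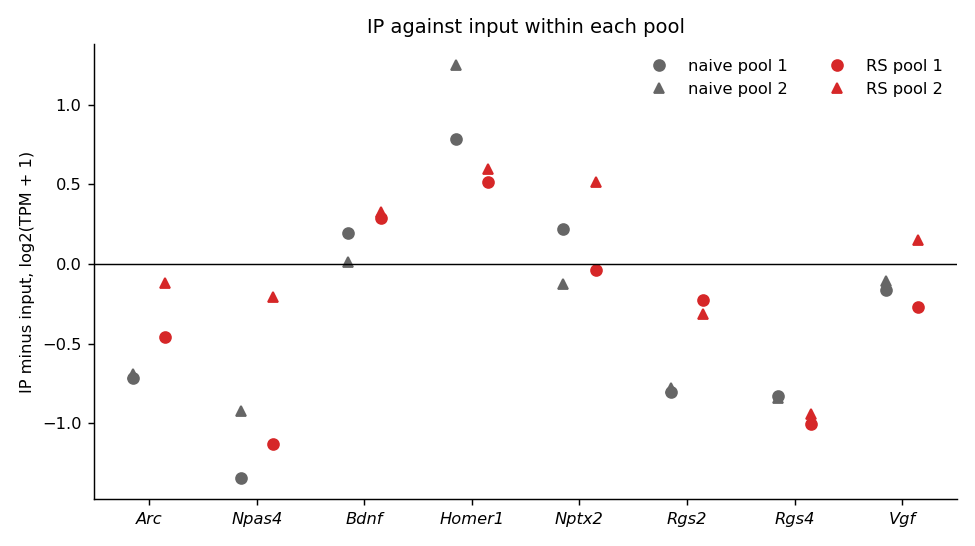
Difference between IP and input within each pool on the log2(TPM + 1) scale (vertical axis) for each gene, with naive pools in grey and RS pools in red (circles pool 1, triangles pool 2). Homer1 lies above 0 in all 4 pools and Rgs4 lies below 0 in all 4, whereas Arc and Rgs2 lie nearer to 0 in both RS pools.

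Genes that work with the members were then described by list. For these counts, 20.3% of all genes tested were called higher and 8.21% lower in input. In the IP the shares were 1.98% and 0.327%. The Homer family and its ligands (9 genes) had 3 higher and 0 lower in RS input, among them Dlgap1, a postsynaptic scaffold (0.66, adjusted p = 0.00176), and Itpr1, the calcium release channel that Homer binds (0.44, 0.0424). Its median was 0.15, close to the 0.13 of all genes. In the IP 0 of 9 were called (1 higher and 0 lower at an unadjusted p under 0.05, limma). Homer2 (-0.19, adjusted p = 0.477) and Homer3 (0.20, 0.493) were, like Homer1 itself, not called there.

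The neuronal pentraxins and AMPA receptor subunits (6 genes) had 2 higher and 0 lower in RS input, with Gria2 at 134 and 143 TPM in naive and 199 and 188 TPM in RS pools (0.48, adjusted p = 0.00168) and Nptx1, the constitutive pentraxin, at 22.4 and 24.4 TPM against 37.0 and 32.8 TPM (0.56, 0.00805). In the IP 0 of 6 were called (0 higher and 1 lower unadjusted). Nptx2 was thus called in the IP and none of its listed partners was, without a test of that contrast between genes. The median of the list was 0.36 in input and -0.04 in IP.

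Among BDNF receptors and other neurotrophins (6 genes), Ntrk2, which encodes TrkB (0.44, adjusted p = 0.00431), Sort1, a sorting receptor for proBDNF (0.47, 0.0146), and Ngfr, the p75 receptor (0.62, 0.0453), were higher in RS input and 0 were lower. In the IP 0 of 6 were called (1 higher and 2 lower unadjusted). Ntrk2 there stood at 61.4 and 63.4 TPM in naive and 77.5 and 81.3 TPM in RS pools, just outside the threshold (0.34, adjusted p = 0.0519). Ntrk2 is expressed in astrocytes as well as neurons, and the astrocyte list moved with it, as given below. The part of astrocytes in the Ntrk2 change was not tested.

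Of the granins and prohormone processing genes (9 genes), 5 were higher and 1 lower in RS input. Scg2, a granin stored with neuropeptides, was higher in input (0.47, adjusted p = 0.00168) and was the only one called in the IP, at 140 and 145 TPM in naive and 194 and 188 TPM in RS pools (0.42, 0.00782). Pcsk1, a prohormone convertase, was higher in input (0.71, adjusted p = 0.00623) and at 0.49 in IP (0.0979). Vgf, which belongs to the same secretory pathway, did not pass in either fraction. The other RGS genes (14 genes) split in input, with 5 higher and 3 lower, among them Rgs8 (0.52, adjusted p = 0.00161) and Rgs9 (0.36, 0.00679) higher and Rgs10 (-0.43, 0.00344) and Rgs19 (-0.27, 0.0103) lower. In the IP 0 of the 14 were called (0 higher and 1 lower unadjusted), beside 1.98% of all genes called higher and 0.327% lower. Rgs2 and Rgs4 were both called there, though not without single IP libraries, as given above. That contrast between genes was not tested.

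The Npas4 family and its partners (6 genes) had 3 higher and 0 lower in RS input, namely Arnt2, the dimer partner of Npas4 (0.55, adjusted p = 0.00186), Npas2 (0.59, 0.00214) and Arntl (0.36, 0.0143), and 0 called in IP (1 higher and 0 lower unadjusted). Arc partners (5 of 6 genes tested, without Cacng2) had 1 higher in input, beside 20.3% of all genes. It was Camk2b, a calcium-activated kinase subunit that binds Arc (0.44, limma, adjusted p = 0.0031). In the IP 0 were called (0 at an unadjusted p under 0.05 as well). Median changes in input were -0.10 for Arc partners, 0.36 for Npas4 partners and 0.38 for BDNF receptors. They were 0.19 for granins and 0.16 for other RGS genes, against 0.13 for all genes. Under median-of-ratios scaling the genes of these lists called higher and lower in input numbered 2 and 0 for Homer, 2 and 0 for pentraxins, 1 and 0 for BDNF receptors, 2 and 0 for Npas4 partners, 3 and 2 for granins, 2 and 3 for other RGS genes and 1 and 2 for Arc partners. With the length trend removed they were 1 and 0, 1 and 0, 1 and 0, 2 and 0, 1 and 1, 2 and 2 and 1 and 0 in the same order.

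Other activity-regulated genes, many of them immediate early genes, formed the last list. Of 22 tested (Inhba and Ptgs2 were too low), 18 were higher and 0 lower in RS input, and 20 were higher and 0 lower in RS IP, with median changes of 0.77 and 1.14. The immediate early factor Fos stood at 35.3 and 33.3 TPM in naive input and 86.1 and 83.3 TPM in RS input (1.28, adjusted p = 0.000373), and at 24.4 and 28.8 TPM in naive IP and 120.0 and 117 TPM in RS IP (2.12, 4.3e-05). Nr4a1, an orphan nuclear receptor, changed by 1.39 in input (adjusted p = 0.000154) and 1.78 in IP (4.3e-05), and Junb by 0.87 (0.000777) and 1.55 (5.82e-05). With median-of-ratios scaling 16 and 20 were higher and 0 lower in input and IP, and with the length trend removed 15 and 19 of 21 were higher and 0 lower. Arc, at 0.98 and 1.40, lay within the range of this list, while Npas4, an early factor like Fos, did not pass in either fraction.

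**Figure D4:**
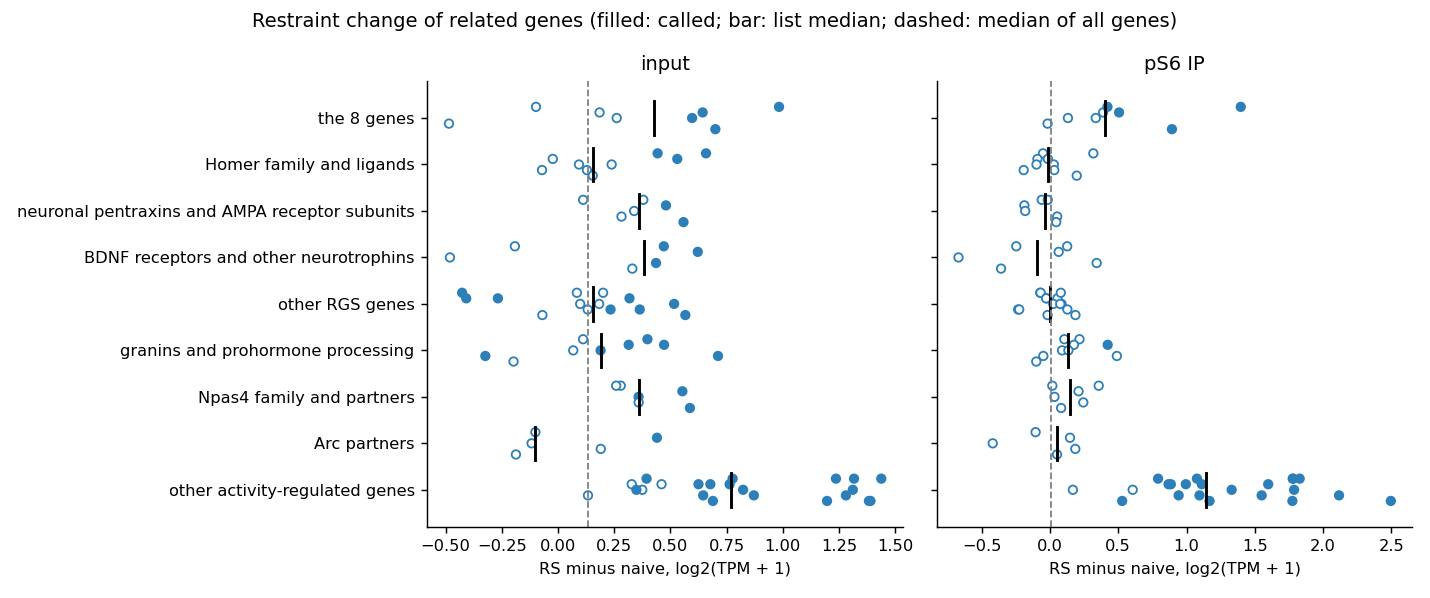
Difference between RS and naive libraries on the log2(TPM + 1) scale (horizontal axes) for each gene of the 8 members and the related lists, in input (left) and in pS6 IP (right). Filled points passed an adjusted p under 0.05, black bars are list medians and dashed lines are the medians of all genes (0.13 and 0.01). In the IP the filled points belong to the members, 1 granin gene and the other activity-regulated genes.

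The gene whose pattern over the 8 libraries was most like that of each member was found by the root mean square difference of centered log2(TPM + 1) values, among genes with a mean of at least 5 TPM. For Rgs4 it was Plk2, an activity-regulated kinase that acts on synaptic scaffolds, at 0.0370, against a range of 1.57 in Rgs4 itself. For Arc it was Enpp2 (autotaxin) at 0.118, followed by the immediate early gene Egr1 at 0.128 and Arl4d at 0.151. Enpp2 is abundant in choroid plexus, whose markers moved with restraint as given below, and whether this bears on its likeness to Arc was not tested. For Nptx2 the 3 nearest genes were F3 (0.137), the growth factor receptor gene Fgfr3 (0.139) and the immediate early gene Egr3 (0.150).

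The nearest genes of the remaining members were Spsb2 for Homer1 (0.0950), Idh2 for Rgs2 (0.0616), Ddx17 for Npas4 (0.124), Spred2 for Bdnf (0.0561) and Mta2 for Vgf (0.0381). Small distances were easier to reach for members that varied little, since Bdnf and Vgf ranged over only 0.58 and 0.55 across the libraries.

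Cell type markers moved with restraint beside these genes. Beside the marker counts, 20.3% of all genes tested were called higher and 8.21% lower in input, and 1.98% and 0.327% in IP. Each library listed 17292 to 17516 genes above 0, and libraries of a group correlated with r of 0.988 to 0.992 across genes, which are not independent replicates. GABAergic septal markers were present in all libraries, with a summed level of 1048 to 1050 TPM in naive input, 895 to 950 in RS input, 1334 to 1367 in naive IP and 1499 in both RS IP pools, and 1 was higher and 3 were lower of 8 in input, with 1 higher and 0 lower in IP. The striatal list, mostly Ppp1r1b, was also high, at 1835 to 1895, 2437 to 2576, 2277 to 2323 and 2200 to 2323 TPM in the same order, with 4 of 6 higher in input and 1 of 6 lower in IP. The glutamatergic list stood at 164 to 166, 214 to 222, 127 to 130.1 and 124 to 129 TPM, with 3 of 6 higher in input and 0 of 6 called in IP. Oligodendrocyte markers rose in RS input in 6 of 7 genes, with a list median of 0.36 against 0.13 for all genes, and summed to 6610 to 6703 TPM in naive input, 7978 to 8590 in RS input, 2426 to 2481 in naive IP and 2571 to 2644 in RS IP. In input, 6 of 10 general neuronal markers were higher and 1 was lower, 3 of 6 microglial markers were higher, 3 of 5 endothelial and mural markers were lower, and 1 of 5 blood markers was higher and 2 were lower. Median-of-ratios scaling changed the numbers called higher and lower in input. They became 2 and 1 for neuronal, 0 and 0 for microglial, 1 and 0 for glutamatergic and 0 and 5 for GABAergic septal markers. Oligodendrocyte and astrocyte markers had 4 and 0 each. The striatal (4 and 0), choroid plexus (4 and 0), endothelial and mural (0 and 3) and blood (1 and 2) counts stayed as they were. In the IP, limma called 0 oligodendrocyte, neuronal, microglial or blood markers, with 3 higher and 0 lower, 3 and 1, 0 and 3, and 0 and 3 at an unadjusted p under 0.05, and it called 1 of 5 endothelial and mural markers higher. Rgs4 and Arc are expressed in striatal and cortical neurons too, and the part of these markers in their input changes was not tested.

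Choroid plexus markers rose in both fractions, with a summed level of 15.1 to 16.5 TPM in naive input, 277 to 333 in RS input, 34.2 to 35.3 in naive IP and 2067 to 2078 in RS IP, and 4 of 5 and 5 of 5 genes called higher. None of the 5 was at 0 in any library. The transthyretin gene Ttr alone stood at 7.62 and 9.32 TPM in naive input and at 2009 and 2029 TPM in RS IP. Astrocyte markers rose as well, with 5 of 7 higher in both fractions and sums of 1440 to 1465, 1653 to 1731, 1318 to 1330.4 and 1690.2 to 1720 TPM. Whether these cells carried part of the RS changes of Arc, Nptx2, Rgs2 or Rgs4 was not tested, and dissection and restraint cannot be told apart with pools of 1 condition each.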

How the data were processed

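Input and pS6 IP libraries of 2 naive and 2 RS pools were analysed as 4 groups. The deposited values, named FPKM by the authors, are 1 column of 24972 rows per library and sum to 1000000 in each, so they were taken as TPM. The labels name STAR and DESeq2 with mm10, whereas TopHat and Cufflinks are named in the methods of the study, and the source of these columns is not stated. TPM keep no read number, so depth is unknown and precision rests on the spread between pools. Date-like symbols (26 rows, 0.148% to 0.283% of the TPM) were left out.

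A gene was kept with at least 1 TPM in 2 or more of the 8 libraries (14365 genes). limma 3.58.1 in R 4.3.3 (lmFit, eBayes with trend; 4 residual and 3.92 prior degrees of freedom) was fitted to log2(TPM + 1) over all 8 libraries, with two-sided tests and Benjamini-Hochberg adjustment over all genes, with calls made under an adjusted p of 0.05. Folds are on that scale and understate low genes. An exact test of 2 against 2 pools cannot go below p = 0.333. The labels speak of 3 pools per group, but the series holds libraries of 2 per group, all of which were analysed here. The paper's figure of these data also gives n = 2. RNA integrity was checked by the authors. In the main fit the error estimate of a gene draws on all 8 libraries and, through the prior, on other genes. The SE of a gene is therefore the same in input and in IP (0.21 in both for Npas4). A p-value does not measure the scatter of only the groups compared. Input and IP libraries from the same pool were treated as independent in that fit.

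Within a condition, input and IP that share a number came from the same pool per the labels and headers. Their deviations from the group means correlated across genes with r of -0.0637 (naive) and -0.0457 (RS). Equal numbers in naive and RS are different mice (r of 0.159 in input and -0.0531 in IP).

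Members and lists were chosen with earlier results of these data known. All members are named, with up to 4 genes of each related list by the size of the moderated statistic and up to 3 genes of nearest pattern. Alternatives were another pseudocount (0.1), other filters, median-of-ratios scaling, no trend, fewer groups, replicate blocks, each library left out and, added after seeing the data, removal of the trend with transcript length (98.9% of genes had a length).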

Additional observations from a re-analysis of the deposited data

Results flagged for a closer look

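The change of Rgs2 with restraint differed between the fractions: it was larger in the IP than in the input by 0.52 on the log2(TPM + 1) scale (SE 0.10, limma, adjusted p = 0.027), from 109.5 and 118 to 106 TPM in both pools in input and from 62.4 and 68.5 to 90.3 and 85.5 TPM in IP. It was the only member for which a test of the difference itself passed the threshold. In 7 of the 8 settings that left out 1 library the call was lost (adjusted p between 0.0592 and 0.0956), while the difference stayed between 0.45 and 0.58 in all 8. The call was also lost without a filter on low values (0.0553) and without a trend in eBayes (0.0849). Outlying pools were not looked for, because groups of 2 are too small.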

How the results depend on the processing

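Over the members, 607 of 672 alternative values kept direction and side of the threshold, 38 lost a call, 11 gained one and 16 turned sign. The RS increases of Arc in both fractions and of Rgs4 in input were called under every alternative run. Nothing here can be tied to sequencing depth, which TPM do not keep. Where a value changed, the cause was not tested.

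Calls over all genes in RS against naive were 4096 in input and 332 in IP, and 970 for the difference between the fractions. Leaving out single libraries gave 1744 to 3864, 103 to 362 and 24 to 1325. The IP count was 208 with no trend and 175 with only the groups compared, and the count for the difference was 246 without a filter, 35 with no trend, 461 with replicate number as a replicate block and 250 with the length trend removed, which left 1709 in input. A fit with only the groups compared cannot be made for the difference, which uses all 4 groups.

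The replicate block of pool (consensus correlation -0.00703) left 942 calls for the difference and changed no call of a member. With replicate number as the block, Nptx2 in IP was lost (adjusted p = 0.0606), and no other member's call changed. Nptx2 in IP was also lost without a filter (0.0902), with no trend (0.0642) and with only the groups compared (0.0675), as was Rgs2 under the last 2 (0.0728 and 0.0774).

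Leaving out single libraries gave 2 to 4 members higher and 0 to 1 lower in RS input, 1 to 4 higher in RS IP, 0 to 1 higher for the difference and 2 to 4 lower in IP against input in RS mice. Signs turned within -0.15 to 0.12 for Npas4 in RS against naive IP, -0.045 to 0.19 for Vgf in the difference, -0.14 to 0.24 for Nptx2 in IP against naive input and -0.18 to 0.059 for Vgf in IP against RS input. With no trend and with only the groups compared, 2 members were higher in RS IP. For the difference, 0 were higher without a filter, 0 with no trend and 2 with median-of-ratios scaling.

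Median-of-ratios scaling moved the share of higher calls from 71.2% to 38.3% in RS against naive input (1111 higher, 1789 lower), from 48.8% to 78.3% for the difference (700 and 194), from 26.2% to 52.0% in IP against naive input and from 24.5% to 51.8% in IP against RS input. It called 1 member lower in RS input, 2 higher in the naive IP, and 6 higher and 1 lower in the RS IP, where it turned Arc (0.22), Rgs2 (0.24) and Vgf (0.42), as it did Vgf in the naive IP (0.22). With the length trend removed, 2 were higher in the naive IP and 5 higher and 1 lower in the RS IP, with 51.8% of calls higher in RS input, and the values that turned were Bdnf in RS input (-0.063), Rgs4 in the difference (0.00011), Vgf in the naive IP (0.19) and Arc (0.27) and Vgf (0.39) in the RS IP. With no trend, and with at least 1 TPM required in all 8 libraries, 2 members were higher in the RS IP than in its input.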
